A study of Sus scrofa with 8 samples.

Results

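Horizontal cell nuclei numbered 112 among 388491 barcodes in single-nucleus RNA sequencing of 8 retinas, and 238517 of the barcodes held at least 2000 unique molecular identifiers (UMIs, each the count of 1 captured transcript). A nucleus was taken as horizontal when it held at least 2000 UMIs, at least 1 UMI of LHX1, at least 4 UMIs over ONECUT1, ONECUT2, ONECUT3 and LHX1 together, none of SLC17A6, and at most 1 over TRPM1, GRM6 and PTPRC. All 8 retinas came from female Yucatan minipigs of 3 to 5 months. Every animal received the hyaluronidase Vitrase 2 weeks before dosing and weekly methylprednisolone, a steroid that dampens inflammation, and then AAV2.7m8/CAG-GFP at 5e11 vector genomes per eye or vehicle. AAV2.7m8 is a capsid made for delivery from the vitreous, and the CAG promoter drives EGFP in most cell types, so the transgene marks entry and expression rather than a cell class. Week 2 comprised both eyes of 1 AAV-injected animal (7221) and 1 vehicle-injected animal (7222). For week 4 there was 1 left eye from each of 4 animals, AAV-injected 7248 and 7249 and vehicle-injected 7250 and 7251. Each of the 4 groups carries its own batch label, and an effect of batch cannot be told apart from one of treatment.

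Horizontal cells are inhibitory interneurons whose processes meet the terminals of rods and cones in the outer plexiform layer. They receive glutamate from photoreceptors through AMPA and kainate receptors and feed back onto cones and bipolar cells, which sets lateral inhibition and contrast. ONECUT1, ONECUT2 and LHX1 are transcription factors that specify and position them, gap junctions couple them into sheets, and mammals commonly have kinds with and without an axon.

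The 8 retinas held 121544835 to 173614051 UMIs each. The horizontal nuclei of week 2 numbered 14 and 32 in the left and right eyes of the AAV-injected animal and 15 and 15 in those of the vehicle-injected animal. At week 4 they numbered 12 in AAV 7248, 8 in AAV 7249, 7 in vehicle 7250 and 9 in vehicle 7251, so that each week 4 sum rested on 90128 to 161738 UMIs. The median nucleus held 12526.5 UMIs and 3757.5 genes, with a range of 5860 to 32300 UMIs. Of these barcode sequences, 11 also occurred in another lane or retina and none was shared by 2 horizontal nuclei. Over all barcodes, 18860 of 368982 distinct sequences occurred in more than 1 lane.

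The nuclei were chosen by their UMIs of the genes above and their total UMIs, so those values are a description only. ONECUT1 was seen in 82 of the 112 nuclei, ONECUT2 in 101 and ONECUT3 in 51, while LHX1 was at 1 UMI in 100 nuclei and 2 UMIs in 12. SLC17A6 was at 0 in each by the rule, and 6 nuclei held the 1 UMI allowed over TRPM1, GRM6 and PTPRC. Just inside the limit, 30 nuclei had exactly 4 UMIs over the ONECUT genes and LHX1, with 14 to 127 UMIs of TNR (median 47). Just outside it, 37 barcodes with 3 such UMIs held 0 to 157 (median 26). LHX1 was so sparse that only 321 of the 238517 barcodes held it, and 555 further nuclei met every condition but the LHX1 UMI. These other nuclei came from the same retinas, so they add nuclei and depth to each value below but no animals.

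TNR, a matrix glycoprotein that the rule did not use, was found in 112 of 112 nuclei at 11 to 127 UMIs. Its level in the horizontal nuclei was 3661 CPM (the UMIs of a gene scaled to a common total of all UMIs), against 427 in GABAergic amacrine nuclei, 66.5 in ganglion cell nuclei and 244 in the rest of the retina. PROX1, a homeodomain factor of horizontal and bipolar cells, stood at 539 CPM against 103 in the rest. CALB1, a calcium-binding protein long used to stain these cells, stood at 278 CPM against 11.3, and the connexin GJA10 at 81.8 CPM against 6.35. The receptor genes MEGF10 and MEGF11, which space horizontal cells into a mosaic, stood at 1211 and 789 CPM against 84.0 and 88.2. The AMPA receptor genes GRIA2, GRIA3 and GRIA4 stood at 1234, 2070 and 4493 CPM against 447, 264 and 1110. PTF1A and PVALB were at 0, and SLC32A1, the vesicular GABA transporter, had 4 UMIs over all horizontal nuclei. The 555 nuclei without an LHX1 UMI had near values of TNR, at 3590 CPM, of CALB1, at 308 CPM, and of GJA10, at 77.6 CPM, although 14 of them held under 10 TNR UMIs.

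The horizontal nuclei fell into 2 kinds (see the plot of the gene pairs that separate them). In 67 nuclei the summed UMIs of CNTN5, an adhesion protein, and PTPRO, a receptor phosphatase, exceeded those of DSCAM and PTPRK, and in 45 the reverse held. None of the 112 lay within 2-fold of equal sums, and of the 667 nuclei counted without the LHX1 condition 4 did. These 4 genes were picked after their values had been seen, so the split is a description. The first kind is called CNTN5-high and the second DSCAM-high.

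**Figure D1:**
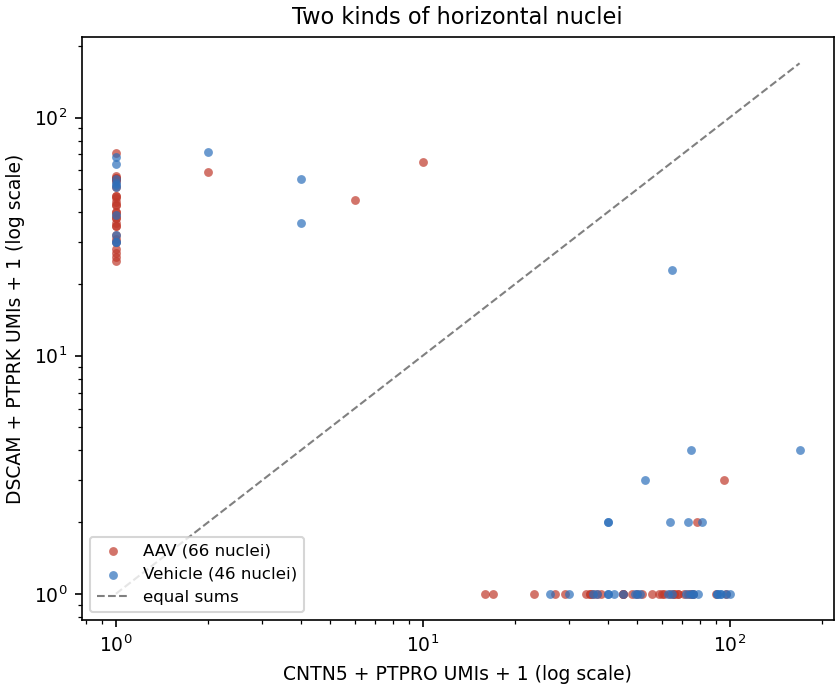
Each point is 1 of the 112 horizontal nuclei, 66 from AAV-injected (red) and 46 from vehicle-injected retinas (blue). The x axis gives CNTN5 and PTPRO UMIs plus 1, the y axis DSCAM and PTPRK UMIs plus 1, both on log scales, and the dashed line marks equal sums; 67 nuclei lie below it and 45 above.

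Other genes followed the same division. KLHL14 stood at 558 CPM in CNTN5-high and 0 CPM in DSCAM-high nuclei, and IGSF11, an adhesion protein, at 624 and 0 CPM. AGBL1, a deglutamylase of tubulin, stood at 1873 and 6.13 CPM, and the calcium release channel RYR3 at 3228 and 153 CPM. ISL1, a LIM homeodomain factor known from horizontal cells without an axon in other species, had no UMI in CNTN5-high nuclei and was seen in 84.4% of DSCAM-high nuclei, at 172 CPM. GAD2, which makes GABA from glutamate, was seen in 17.9% of CNTN5-high and 86.7% of DSCAM-high nuclei, at 50.7 and 298 CPM. NTRK2, a neurotrophin receptor, stood at 98.3 and 911 CPM. TNR, PROX1 and GJA10 were present in both kinds, at 4010, 497 and 83.8 CPM in the first and 2973, 621 and 77.6 CPM in the second.

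The mix of the kinds differed between retinas. The rule admitted the kinds unevenly. Among nuclei counted without the LHX1 condition, an LHX1 UMI was seen in 22.4% of CNTN5-high and 12.2% of DSCAM-high nuclei. At week 4 the DSCAM-high kind made up 5 of 12 nuclei of AAV 7248 (41.7%) and 4 of 8 of AAV 7249 (50%). It made up 1 of 7 nuclei of vehicle 7250 (14.3%) and 3 of 9 of vehicle 7251 (33.3%). Both AAV-injected retinas lay above both vehicle-injected retinas, at 45.8% ± 5.89 against 23.8% ± 13.5 (SD, n = 2 per arm), and the exact permutation test gave p = 0.333 (two-sided), the smallest p that 2 against 2 allows. In the nuclei without an LHX1 UMI the shares overlapped, at 57.4% and 61.7% against 57.8% and 47.5% (exact permutation p = 0.667). At week 2 the shares in the left and right eyes were 42.9% and 53.1% for AAV and 26.7% and 33.3% for vehicle. Since AGBL1 and GAD2 are tied to a kind and PDE10A had more UMIs in the DSCAM-high kind at week 4, their values between arms are given below within the kinds too.

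The first comparison asked what AAV changed in these nuclei at week 4, on UMIs summed per retina. Genes of the antiviral interferon response rose together, PDE10A, KCNMA1, LRRTM4 and GAD2 also rose, and ROBO1, TMEFF2, AGBL1 and PTPRD were among the genes that fell. Of 2278 genes tested, 33 were higher (1.45%) and 14 lower (0.615%) after AAV at an adjusted p under 0.05 (edgeR quasi-likelihood test). All 47 lay without overlap between the arms, which follows largely from the call and is no separate support. Of the 33, 15 had no UMI in either vehicle-injected retina and passed the filter on low counts through the AAV-injected retinas. The counts depended on single retinas. They were 56 higher and 46 lower without AAV 7248, 62 and 25 without AAV 7249, 5 and 1 without vehicle 7250, and 73 and 46 without vehicle 7251. In the nuclei without an LHX1 UMI, 195 of 6948 genes were higher (2.81%) and 80 lower (1.15%). These included 31 of the 33 and 11 of the 14. In a fit of the CNTN5-high horizontal nuclei alone 25 genes were higher (1.46%) and 6 lower (0.351%), 19 and 5 of them among the 47. Without the LHX1 condition, 31 of the 33 and 11 of the 14 were called again in CNTN5-high nuclei (backgrounds 3.77% and 2.12%) and 28 and 8 in DSCAM-high nuclei (1.52% and 0.564%). The sums alone do not tell fewer nuclei with a transcript from less transcript per nucleus. TMEFF2, ENOX1 and ACVR2A, which fell, had a UMI in all 12, 8, 7 and 9 nuclei, so their fall lay in the mean UMIs per nucleus. Such a mean also depends on the mix of kinds, as TMEFF2 stood at 4561 CPM in CNTN5-high and 1831 in DSCAM-high nuclei. The part of the mix in these means was not tested. ROBO1 had a UMI in 8 of 12 and 3 of 8 nuclei after AAV and in 7 of 7 and 8 of 9 after vehicle.

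**Figure D2:**
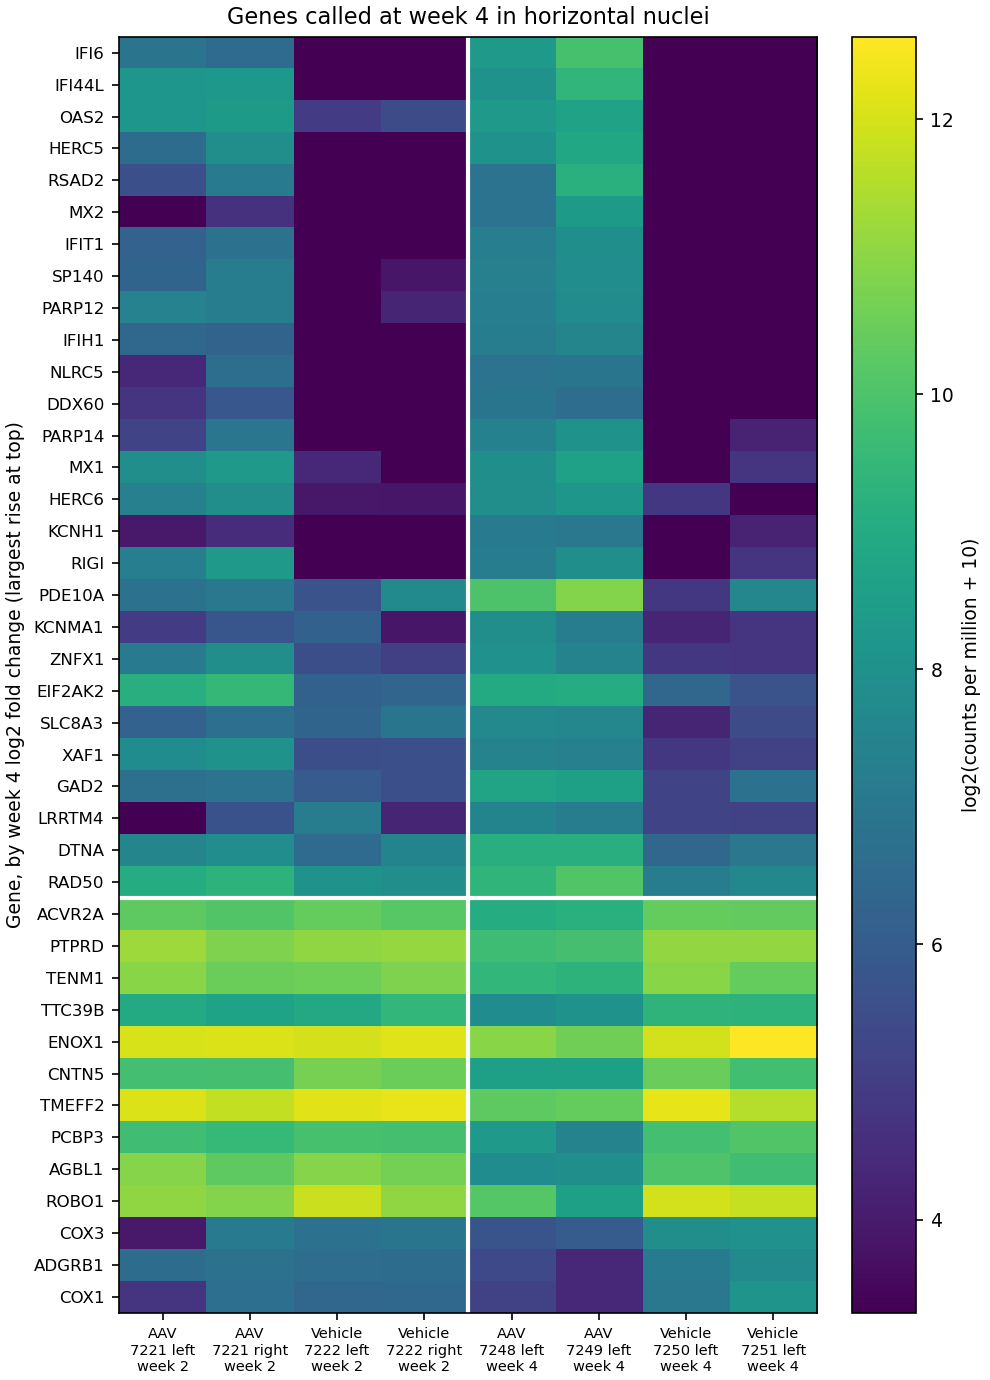
Rows are 40 called genes with a symbol, ordered by log2 fold change at week 4, and columns are the 8 retinas, with colour giving log2(CPM + 10) in the summed horizontal nuclei. Above the white horizontal line the week 4 AAV columns (7248, 7249) are brighter than the vehicle columns (7250, 7251), as for IFI6 with 49 and 86 against 0 and 0 UMIs, and below it they are darker, as for AGBL1 with 35 and 21 against 112 and 102 UMIs.

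Among sensors of foreign nucleic acid, 14 of the listed genes were found in the files, 4 reached the filter on low counts, and 3 rose, beside 1.45% of all genes tested. The filter admits genes through the AAV-injected retinas, as it did IFIH1. RIGI, which detects RNA with uncapped ends, had 23 and 21 UMIs in AAV 7248 and 7249 and 0 and 2 in vehicle 7250 and 7251 (log2 fold change 4.21 ± 0.795 SE, edgeR adjusted p = 0.0214). IFIH1, which detects long double-stranded RNA, had 23 and 16 against 0 and 0 UMIs and was at least 11.7-fold higher, a bound set against 3 counts over both vehicle-injected retinas together. Both were near absent from vehicle-injected retinas. EIF2AK2, the kinase that halts translation on double-stranded RNA, was already present in vehicle-injected retinas, with 80 and 48 against 8 and 5 UMIs (log2 fold change 3.12 ± 0.419 SE, edgeR adjusted p = 0.00740). ADAR, an RNA editing enzyme, had 18 and 15 against 7 and 3 UMIs and missed the threshold (edgeR adjusted p = 0.254). Over the whole list of found sensors, the horizontal nuclei held 10.0 and 11.8 UMIs per 10000 in AAV-injected and 1.48 and 1.26 in vehicle-injected retinas.

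The list of interferons, their receptors and the factors downstream held 21 genes, and over the whole list the horizontal nuclei had 15.4 and 17.97 UMIs per 10000 after AAV and 6.03 and 5.46 after vehicle. IRF2, which binds the same promoter sites as its activating relatives, had 25 and 15 against 7 and 5 UMIs without passing the test (edgeR adjusted p = 0.148). JAK1 and JAK2, the receptor kinases, had log2 fold changes of 0.43 and 0.67 (edgeR adjusted p = 0.732 and 0.539). With the added depth of the nuclei without an LHX1 UMI, 9 of 14 tested rose (2.81% of all genes there), among them STAT2, IRF9, IRF1, and the receptor genes IFNAR1, with 45 and 43 against 8 and 9 UMIs, and IFNAR2, with 58 and 40 against 10 and 10. STAT2, with 122 and 50 against 5 and 4 UMIs, IRF9, with 33 and 44 against 1 and 0, and IRF1, with 12 and 14 against 0 and 0, passed the filter through the AAV-injected retinas.

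Antiviral effectors made the greatest part of the rise. Of 60 listed genes 49 were found, 46 had a UMI at week 4, 16 were tested and 14 rose, with a median log2 fold change of 7.01 beside 0.0128 over all genes tested. That median was 4.07 with the 9 genes at 0 in vehicle-injected retinas set to their bounds. The filter admitted most of these genes through the AAV-injected retinas, so the count describes the tested genes and not the list. Over all 49 genes the horizontal nuclei held 40.1 and 72.9 UMIs per 10000 after AAV and 3.53 and 2.94 after vehicle. IFI6, a mitochondrial and endoplasmic reticulum protein that limits viral replication, had 49 and 86 against 0 and 0 UMIs, at least 40.4-fold higher, and was found in 12 of 12 and 8 of 8 AAV nuclei. IFI44L had 41 and 61 against 0 and 0 UMIs, at least 30.5-fold higher. OAS2, which makes the messenger that activates RNase L, had 49 and 36 against 0 and 0 UMIs, at least 25.4-fold higher. The arms did not overlap in these, and on the CPM scale AAV 7249 stood above AAV 7248 in each.

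HERC5, the ligase that attaches ISG15 to proteins, had 41 and 41 against 0 and 0 UMIs, at least 24.5-fold higher. RSAD2, which makes a chain-terminating nucleotide, had 17 and 52 against 0 and 0 UMIs, at least 20.6-fold higher. The dynamin-like GTPases MX1 and MX2 trap incoming viral particles. MX1 had 38 and 35 against 0 and 2 UMIs (log2 fold change 4.94 ± 0.705 SE, edgeR adjusted p = 0.00787), and MX2 had 17 and 29 against 0 and 0 UMIs, at least 13.8-fold higher. IFIT1, which binds RNA lacking the cap marks of the host, had 24 and 21 against 0 and 0 UMIs, at least 13.5-fold higher. SP140, a chromatin reader, and PARP12, an ADP-ribosyltransferase, were at least 13.5-fold and 12.9-fold higher, with 25 and 20 and with 24 and 19 UMIs against none. SAMHD1, which depletes nucleotides, had 40 and 7 against 13 and 17 UMIs, so the arms overlapped.

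The promoters of 4 of these genes are shown because their members moved together and interferon-stimulated genes are commonly driven through a short element, the ISRE, bound by STAT and IRF factors. The letters searched were GAAA, 2 bases of any letter, then GAAA, and the reverse complement TTTC, 2 bases of any letter, then TTTC, so that both strands were covered, in the 200 bases before each RefSeq gene start of Sscrofa11.1. They occurred in 8 of the 28 higher genes with a sequence (28.6%), 0 of the 11 lower genes and 435 of 19506 protein-coding genes (2.23%). Capitals mark the matching letters, and each sequence reads toward the gene start from the minus strand. The IFIH1 window held 3 matches, of which a pair overlap. A match describes letters, not a bound site. The windows lie at chr6:84858073-84858272 for IFI6, chr6:134679213-134679412 for IFI44L, chr14:38847698-38847897 for OAS2 and chr15:68985146-68985345 for IFIH1.
IFI6: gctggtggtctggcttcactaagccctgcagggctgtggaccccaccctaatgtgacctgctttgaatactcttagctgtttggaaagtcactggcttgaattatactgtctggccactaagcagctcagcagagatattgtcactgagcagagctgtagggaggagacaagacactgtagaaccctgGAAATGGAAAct
IFI44L: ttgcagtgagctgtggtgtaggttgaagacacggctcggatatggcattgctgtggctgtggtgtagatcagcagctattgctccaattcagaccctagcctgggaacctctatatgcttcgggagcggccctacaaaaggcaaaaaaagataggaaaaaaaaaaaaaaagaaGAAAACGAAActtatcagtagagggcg
OAS2: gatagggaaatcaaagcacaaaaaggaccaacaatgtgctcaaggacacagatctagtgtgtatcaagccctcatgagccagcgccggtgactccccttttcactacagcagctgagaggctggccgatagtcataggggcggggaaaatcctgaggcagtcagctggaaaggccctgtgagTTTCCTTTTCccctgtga
IFIH1: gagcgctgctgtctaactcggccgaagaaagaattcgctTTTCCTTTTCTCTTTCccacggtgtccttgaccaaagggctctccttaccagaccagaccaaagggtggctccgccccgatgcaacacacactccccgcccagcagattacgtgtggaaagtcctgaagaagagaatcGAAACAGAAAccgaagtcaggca

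Antiviral transcripts were also counted in single nuclei. Each nucleus was thinned to 2000 UMIs, so that depth was equal, and the antiviral effector UMIs were counted. At week 4 the mean per nucleus was 8.17 in AAV 7248 and 14.8 in AAV 7249, against 0.714 in vehicle 7250 and 0.778 in vehicle 7251. All 12 and all 8 AAV nuclei held at least 1 such UMI, against 4 of 7 and 4 of 9 vehicle nuclei. No cell type known to lack these transcripts was measured, so the part of free RNA in these shares was not tested. Single nuclei overlapped between the arms, since the lowest nucleus held 1 in AAV 7248 and 7 in AAV 7249 and the highest held 2 in vehicle 7250 and 3 in vehicle 7251. The arms averaged 11.5 ± 4.66 and 0.746 ± 0.0449 (SD, n = 2 animals per arm), and the exact permutation p was 0.333 (two-sided), the smallest that this design gives. At week 2 the means were 5.36 and 8 in the left and right AAV eyes and 0.667 and 1.27 in the vehicle eyes. Without thinning, the week 4 means were 54.0, 82.1, 5.43 and 3.89 UMIs in the same order of retinas.

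**Figure D3:**
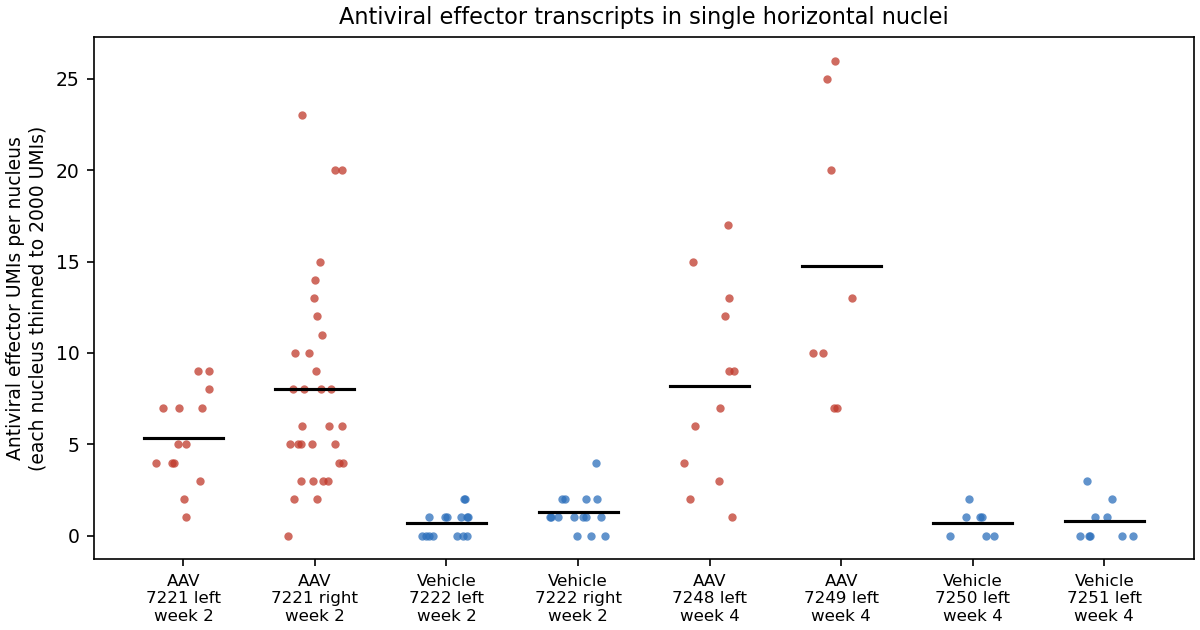
Each point is 1 horizontal nucleus thinned to 2000 UMIs, the y axis gives its antiviral effector UMIs, black bars are the means of each retina, and the x axis gives the 8 retinas by arm, animal, eye and week. Means of the AAV-injected retinas (red) run from 5.36 to 14.8 and those of the vehicle-injected retinas (blue) from 0.667 to 1.27.

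Both kinds took part. In CNTN5-high nuclei counted without the LHX1 condition, the thinned means at week 4 were 9.76 and 10.4 after AAV and 0.840 and 0.667 after vehicle. In DSCAM-high nuclei they were 9.95 and 14.1 against 0.852 and 1.00. Of the antiviral effectors tested in each kind, 29 of 33 and 28 of 33 rose, beside 3.77% and 1.52% of all genes. Here too the filter admitted genes through the AAV-injected retinas.

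Antigen presentation was sparse in the horizontal nuclei. Of 20 genes found, NLRC5, the activator of class I genes, was the 1 tested, and it rose with 17 and 10 against 0 and 0 UMIs, at least 8.07-fold higher. NLRC5 reached the filter through the AAV-injected retinas alone. B2M, the invariant chain of class I, had 10 and 16 against 0 and 0 UMIs and did not reach the filter. In the nuclei without an LHX1 UMI, B2M had 73 and 84 against 0 and 1 UMIs (log2 fold change 6.42), and 8 of the 11 tested genes rose (2.81% of all genes there), TAP1, TAP2 and TAPBP among them. B2M, TAP1 (43 and 42 against 1 and 1 UMIs), TAPBP (12 and 16 against 1 and 1) and TAP2 (24 and 16 against 0 and 0) passed the filter through the AAV-injected retinas alone. The count of 8 therefore describes the tested genes and not the list.

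A gene outside these lists that acts on DNA rose too. RAD50, the ATPase of the complex that senses double-strand breaks, had 106 and 96 against 15 and 23 UMIs (log2 fold change 2.33 ± 0.362 SE, edgeR adjusted p = 0.00960). RAD50 was called again in both kinds of nuclei counted without the LHX1 condition, and it was chosen for naming after its values were seen.

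Other lists gave few calls or none. In the nuclei without an LHX1 UMI 2.81% of all genes tested were higher, so 1 call in a short list there says little of the list. Of 28 p53 target genes found, 1 was tested and none called, and the summed list stood at 4.33 and 4.33 UMIs per 10000 after AAV and 4.36 and 3.19 after vehicle. No gene of the 27 cell death or the 30 TNF and NF-kB genes reached the filter. Their summed levels were 4.39 and 5.55 against 2.69 and 2.60 UMIs per 10000 for cell death, and 1.92 and 3.44 against 2.04 and 1.01 for TNF and NF-kB. In the nuclei without an LHX1 UMI, CFLAR, an inhibitor of caspase 8, was the 1 of 8 tested cell death genes that rose. It had 30 and 15 against 3 and 1 UMIs and passed the filter through the AAV-injected retinas. Of 20 complement genes found, 2 were tested and none called. C3, the central complement protein, stood at 201 CPM in horizontal nuclei against 8.72 in the rest of the retina, and had 20 and 2 UMIs after AAV against 37 and 32 after vehicle without passing the test (edgeR adjusted p = 0.125). Among the nuclei without an LHX1 UMI, SERPING1, an inhibitor of the first complement proteases, was the 1 of 4 tested that rose, with 72 and 42 against 11 and 11 UMIs. Of 28 neuronal stress genes, 1 was tested and none called. The summed level was 11.2 UMIs per 10000 in AAV 7249 and 3.99 to 4.62 in the other 3 retinas. The nuclei lacking an LHX1 UMI held 6.61 and 10.2 after AAV and 4.16 and 5.02 after vehicle, and STMN4, a stathmin of neurons, was the 1 of 10 tested that rose.

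Few genes of horizontal cell identity and synapses were called. Their summed levels were lower in both AAV-injected retinas, and 1 abundant gene weighed heavily in the identity sum. Of the 20 found identity genes that the rule did not use, 11 were tested and none passed, with a median log2 fold change of −0.39 beside 0.0128 over all genes. Over the whole list the level was 128 and 136 UMIs per 10000 after AAV and 160.0 and 155 after vehicle, and 138 and 125 against 143 and 146 in the nuclei without an LHX1 UMI. There ESRRB, an orphan nuclear receptor, was the 1 of 14 tested that fell (1.15% of all genes there), with 166 and 139 against 202 and 199 UMIs (log2 fold change −1.00). PCDH9 gave the largest part of the identity sum in horizontal nuclei, at 5138 and 6435 CPM after AAV against 8696 and 6286 after vehicle. It is mainly a gene of the CNTN5-high kind, at 9150 CPM against 2421 in DSCAM-high nuclei. Whether the sum differs without PCDH9 was not tested. TNR had 617 and 306 against 298 and 493 UMIs, at a log2 fold change of 0.06 ± 0.259 SE. Its sign turned in several alternatives given below. CALB1 had 19 and 0 UMIs after AAV against 27 and 39 after vehicle, without passing (edgeR adjusted p = 0.194). GRIA2, GRIA3 and GRIA4, subunits of the receptor for photoreceptor glutamate, had log2 fold changes of 0.01, −0.42 and −0.50 (edgeR adjusted p = 0.995, 0.582 and 0.391). Of 49 junction, channel and synapse genes found, 17 were tested and KCNMA1 rose. None fell. That list summed to 99.6 and 93.9 against 128 and 111 UMIs per 10000, and to 97.3 and 95.6 against 119 and 115 in the nuclei without an LHX1 UMI. These sums were not tested. When the nuclei without an LHX1 UMI were fitted, 2 of 29 tested rose and 2 fell, beside 2.81% and 1.15% of all genes there. Against that background, 1 or 2 calls in a short list say little of the list. KCNMA1 and ATP1B1, a subunit of the sodium pump with 136 and 170 against 54 and 50 UMIs, rose. GJA10 fell, with 33 and 13 against 74 and 35 UMIs (log2 fold change −1.84), and CA2, a carbonic anhydrase that shapes the feedback to cones, fell with 99 and 68 against 126 and 135 UMIs (log2 fold change −1.25). Of 14 genes for AAV receptors and entry, 8 were tested and none called, KIAA0319L, the main AAV receptor, among them. Among the nuclei without an LHX1 UMI, FGFR1, a growth factor receptor, was the 1 of 10 tested that fell, with 40 and 45 against 75 and 64 UMIs.

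PDE10A, a phosphodiesterase that breaks down cAMP and cGMP, rose as well. It had 165 and 170 UMIs after AAV and 2 and 22 after vehicle (log2 fold change 3.76 ± 0.595 SE, edgeR adjusted p = 0.00961), in 8 of 12 and 7 of 8 nuclei against 1 of 7 and 2 of 9. The most that 1 nucleus gave was 63 of the 165 and 53 of the 170 UMIs, and in vehicle 7251 it was 21 of the 22. In the nuclei without an LHX1 UMI it had 577 and 839 against 80 and 95 UMIs (log2 fold change 2.40). The share of DSCAM-high nuclei among the horizontal nuclei was higher in both AAV-injected retinas, as given above. Counted without the LHX1 condition, DSCAM-high nuclei had 591 and 930 against 79 and 111 UMIs (log2 fold change 2.06) and CNTN5-high nuclei 151 and 79 against 3 and 6 UMIs (log2 fold change 4.45), and it was called in both. In the CNTN5-high horizontal nuclei alone it was called at a log2 fold change of 4.14. PDE10A was not scarce elsewhere in the retina, at 1519 CPM in all other nuclei.

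Among the other genes that rose were 3 with roles in ion transport. KCNMA1, the large-conductance potassium channel opened by calcium, had 37 and 13 against 1 and 2 UMIs (log2 fold change 3.76 ± 0.631 SE, edgeR adjusted p = 0.0123), of which 17 of the 37 came from 1 nucleus, and it stood at 1301 CPM in the rest of the retina against 229 and 144 CPM in these AAV sums. KCNH1, a voltage-gated potassium channel, had 21 and 11 against 0 and 1 UMIs (log2 fold change 4.54 ± 0.952 SE, edgeR adjusted p = 0.0372). SLC8A3, a sodium and calcium exchanger, had 32 and 17 against 1 and 4 UMIs (log2 fold change 3.08 ± 0.571 SE, edgeR adjusted p = 0.0202). All 3 were called again in the nuclei without an LHX1 UMI. With 0 to 4 UMIs in each vehicle-injected retina, they passed the filter on low counts through the AAV-injected retinas, as did LRRTM4. LRRTM4, a postsynaptic adhesion protein of excitatory and GABAergic synapses, had 28 and 13 against 3 and 3 UMIs (log2 fold change 2.55 ± 0.552 SE, edgeR adjusted p = 0.0424). In AAV 7249, 1 nucleus gave 12 of the 13 UMIs, and LRRTM4 stood at 1816 CPM in the rest of the retina. It was called in CNTN5-high but not in DSCAM-high nuclei, at log2 fold changes of 3.42 and 1.21. DTNA, a dystrophin-associated scaffold, had 90 and 50 against 8 and 14 UMIs (log2 fold change 2.5 ± 0.370 SE, edgeR adjusted p = 0.00787). DTNA rose in CNTN5-high nuclei and stood at a log2 fold change of 0.24 in DSCAM-high nuclei, where it was not called. KCNH1, SLC8A3, LRRTM4 and DTNA were named after their values were seen.

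GAD2 was the 1 gene of 10 tested transmitter and receptor genes that rose, beside 1.45% of all genes tested. It had 68 and 34 UMIs after AAV and 3 and 12 after vehicle (log2 fold change 2.59 ± 0.497 SE, edgeR adjusted p = 0.0233). Within the kinds it was not called, at log2 fold changes of 1.82 in CNTN5-high and 0.68 in DSCAM-high nuclei counted without the LHX1 condition. GAD2 is a gene of the DSCAM-high kind, whose share was higher in both AAV-injected retinas, and the part of that share in the GAD2 value was not tested beyond these fits. The nuclei without an LHX1 UMI, whose shares overlapped between arms, gave a log2 fold change of 0.85 that did not pass. There GAD1, the other GABA-making enzyme, rose with 30 and 31 against 3 and 2 UMIs, and it passed the filter through the AAV-injected retinas.

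Of the 14 lower genes, 13 have a symbol. ROBO1, the receptor for SLIT repellents, had 184 and 34 UMIs after AAV and 430 and 414 after vehicle (log2 fold change −2.26 ± 0.414 SE, edgeR adjusted p = 0.0185). It fell in both kinds, with 756 and 365 against 1315 and 1315 UMIs in CNTN5-high and 42 and 52 against 413 and 202 UMIs in DSCAM-high nuclei counted without the LHX1 condition. TMEFF2, a transmembrane protein with follistatin domains that stood at 3643 CPM in horizontal nuclei against 146 in the rest, had 203 and 120 against 523 and 359 UMIs (log2 fold change −1.62 ± 0.289 SE, edgeR adjusted p = 0.0171). Counted without the LHX1 condition, TMEFF2 was called in CNTN5-high and DSCAM-high nuclei, at log2 fold changes of −1.54 and −1.50. In CNTN5-high horizontal nuclei alone TMEFF2 was not called, at −1.19 (edgeR adjusted p = 0.0640). PTPRD, a presynaptic receptor phosphatase, and TENM1, a teneurin that joins synaptic partners, fell by 1.31 and 1.34 on the log2 scale (edgeR adjusted p = 0.0214 and 0.0397). TENM1 is mainly a gene of the CNTN5-high kind, with 753 and 702 UMIs there against 152 and 120 in DSCAM-high nuclei of the vehicle-injected retinas. It was not called among CNTN5-high nuclei with or without the LHX1 condition, at log2 fold changes of −0.80 and −0.76, and was called in DSCAM-high nuclei at −2.20. CNTN5 had 61 and 34 against 153 and 104 UMIs (log2 fold change −1.61 ± 0.322 SE, edgeR adjusted p = 0.0295), and since it defines a kind, its values within the kinds are not given as results. ACVR2A, an activin receptor, fell by 1.27 on the log2 scale (edgeR adjusted p = 0.0354). Counted without the LHX1 condition, ACVR2A was called in CNTN5-high nuclei, at −1.19, and not in DSCAM-high nuclei, at −0.53. In CNTN5-high horizontal nuclei alone it was not called, at −1.23 (edgeR adjusted p = 0.0629).

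AGBL1 had 35 and 21 UMIs after AAV and 112 and 102 after vehicle (log2 fold change −2.09 ± 0.303 SE, edgeR adjusted p = 0.00787). In CNTN5-high horizontal nuclei alone, which hold nearly all of it, the fall was 1.65 on the log2 scale and still called. PCBP3, an RNA-binding protein, had 50 and 15 against 98 and 128 UMIs (log2 fold change −2.01 ± 0.339 SE, edgeR adjusted p = 0.0123), and ENOX1, an electron-transfer oxidase of the cell surface, had 322 and 139 against 434 and 738 UMIs (log2 fold change −1.53 ± 0.280 SE, edgeR adjusted p = 0.0185). TTC39B had 35 and 23 against 69 and 74 UMIs (log2 fold change −1.44 ± 0.304 SE, edgeR adjusted p = 0.0387). In each of these 4 the highest AAV-injected retina lay below the lowest vehicle-injected retina once scaled to depth.

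Of the lower genes, 3 were not called in the nuclei without an LHX1 UMI. COX1 and COX3, mitochondrially encoded subunits of cytochrome c oxidase, had 4 and 1 against 13 and 32 UMIs and 7 and 5 against 25 and 30 UMIs (log2 fold changes −3.26 and −2.32, edgeR adjusted p = 0.0274 and 0.0174). In vehicle 7251, 1 nucleus gave 24 of the 32 and 24 of the 30 UMIs, and its share of mitochondrial transcripts, at 0.921%, was the highest of the 112. The most that 1 nucleus gave in vehicle 7250 was 10 of the 13 COX1 and 21 of the 25 COX3 UMIs. Both vehicle levels thus rested largely on single nuclei. ADGRB1, an adhesion receptor of synapses, had 5 and 1 against 14 and 24 UMIs (log2 fold change −2.78 ± 0.610 SE, edgeR adjusted p = 0.0455).

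Markers of other cells give the background of these sums. At week 4, 11 rod genes summed to 859 and 277 CPM in AAV-injected and 306 and 277 in vehicle-injected retinas, and 7 cone genes to 39 and 1 against 2 and 5 UMIs. In AAV 7248, 1 nucleus held 42 of the 56 UMIs of IMPG1, a photoreceptor matrix protein, 64 of the 68 of KCNB2 and 30 of SAG, the rod arrestin. The 10 bipolar genes summed to 92.7 and 55.5 against 18.6 and 25.2 CPM, which rests on 15, 5, 2 and 3 UMIs. The 9 Müller glia genes summed to 223 and 178 against 148 and 143 CPM. Microglia genes (12.4 and 22.2 against 9.28 and 25.2 CPM) and lymphocyte genes (291 and 244 against 232 and 311 CPM) overlapped between arms, while the pigment epithelium genes (49.5 and 33.3 against 9.28 and 25.2 CPM) and the astrocyte genes (2 and 1 against 0 and 0 UMIs) were higher in both AAV-injected retinas, as were the bipolar and Müller glia genes. PDE6H, CSF1R, CD3E, CD2, RPE65, GFAP and POU4F2 were at 0 in all horizontal nuclei, while other genes of their lists held UMIs. Of the 16 lymphocyte genes 9 had a UMI. Over the 8 retinas that list stood at 121 to 334 CPM, against 51.0 to 158 in the rest of the retina. Amacrine genes stood at 244 to 399 CPM against 190 to 429 in the rest, and ganglion cell genes at 0 to 74.2 against 177 to 271. The part of these cells in the values above was not tested.

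Week 2 compared 1 animal per arm, so folds carry exact Poisson intervals for counting error only and no test. Past the fold meant over 2-fold between animals with both eyes of one beyond both of the other, at 20 UMIs or more. Of 5737 such genes, 338 were higher (5.89%) and 192 lower (3.35%) after AAV. The antiviral genes were again the most changed. Of the 26 antiviral effectors that reached 20 UMIs, 23 were past the fold and higher, as were 4 of 4 sensors. Many of them, such as IFI44L and RIGI, reached 20 UMIs through the AAV eyes alone, so these counts describe the genes that reached it. MX1 had 43 and 122 UMIs in the left and right AAV eyes and 2 and 0 in the vehicle eyes, 54.0-fold higher (95% interval 14.7 to 450). IFI44L had 52 and 117 against 0 and 0 UMIs, at least 36.9-fold higher, and RIGI had 27 and 120 against 0 and 0 UMIs, at least 32.1-fold higher. MX2 had 0 and 6 UMIs against none, which is near the floor.

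Another set of genes was lower at week 2. PDZRN4, a ubiquitin ligase with PDZ domains, had 4 and 6 against 45 and 42 UMIs, 13.3-fold lower (6.89 to 28.7). CNTNAP5, an adhesion protein of the neurexin family, had 3 and 24 against 96 and 52 UMIs, 8.38-fold lower (5.53 to 13.1), and MYO1D, an unconventional myosin, had 3 and 21 against 54 and 46 UMIs, 6.37-fold lower (4.05 to 10.4). The nuclei without an LHX1 UMI gave these 3 genes 10 and 42 against 75 and 109, 24 and 81 against 168 and 190, and 20 and 61 against 166 and 219 UMIs. TRPC7, a cation channel, had 7 and 17 against 26 and 42 UMIs, 4.33-fold lower. ND4, a mitochondrial gene, was 5.81-fold lower in the horizontal nuclei and at 1.09-fold in the nuclei without an LHX1 UMI.

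The genes that fell at week 4 were closer between the arms at week 2. AGBL1 had 353 and 498 UMIs after AAV and 357 and 334 after vehicle, ROBO1 398 and 736 against 690 and 441, and TMEFF2 827 and 1370 against 863 and 1037, for folds of 0.81, 0.66 and 0.76 after scaling. None was past the fold. PDE10A had 19 and 48 against 8 and 43 UMIs, and KCNMA1 4 and 18 against 12 and 1. In the test of the effect at week 4 against that at week 2, which borrows its spread from the week 4 animals, 0 of 3697 genes differed in either direction (0% in both, edgeR; 97 and 96 at an unadjusted p under 0.05, and 0 by DESeq2). That count rested on all 4 week 4 retinas, since 16 genes were higher and 21 lower without AAV 7248, 24 and 2 without AAV 7249, 8 and 4 without vehicle 7250, and 20 and 9 without vehicle 7251. Whether these genes changed between the weeks is therefore not shown by these nuclei. Without the LHX1 condition, 2 of 9589 genes had the higher effect at week 4 (PDE10A and CNTNAP5, 0.0209%) and 1 the lower (0.0104%), a gene without a symbol.

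The effect of AAV was then set against that in other neurons of the same retinas at week 4. GABAergic amacrine nuclei were chosen by their UMIs of GAD1, GAD2, TFAP2A, TFAP2B and PAX6. Ganglion cell nuclei were chosen by their UMIs of SLC17A6, RBPMS and other ganglion cell genes. PDE10A and KCNMA1 rose and ROBO1 and AGBL1 fell relative to their effects in amacrine cells. Against GABAergic amacrine nuclei, the effect was higher in horizontal nuclei for 42 of 16349 genes (0.257%) and lower for 21 (0.128%). Against ganglion cell nuclei it was higher for 49 of 12328 genes (0.397%) and lower for 16 (0.13%). Of the genes of interferon, sensor, effector and presentation lists, 1 of 89 (OAS2) and 0 of 79 had a higher effect and none a lower one. Many of these genes had no UMI in the vehicle-injected horizontal sums, so their fitted differences are not given. Without the LHX1 condition, 8 of 89 and 4 of 83 had a higher effect and none a lower one. OAS2 had no UMI in vehicle-injected horizontal nuclei, and a missed threshold does not show that the effects were equal. Without AAV 7248, AAV 7249, vehicle 7250 and vehicle 7251 in turn, the counts against amacrine nuclei were 23, 67, 2 and 14 higher, and 18, 9, 3 and 6 lower. Those against ganglion cell nuclei were, in the same order, 23, 69, 7 and 15 higher and 31, 18, 6 and 11 lower. Without the LHX1 condition, 0.906% of genes were higher and 0.557% lower against amacrine nuclei, and 0.476% and 0.381% against ganglion cell nuclei.

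**Figure D4:**
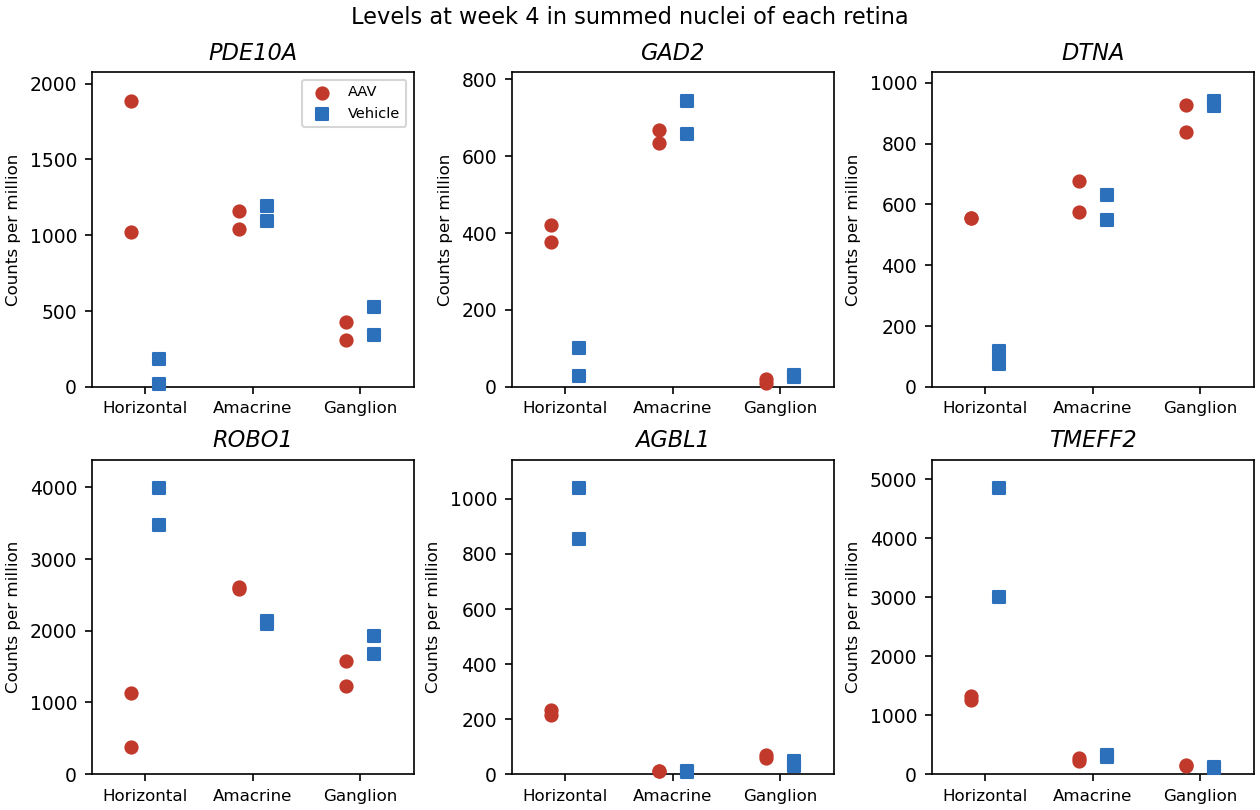
Panels give 6 genes, PDE10A, GAD2, DTNA, ROBO1, AGBL1 and TMEFF2, and the x axis the horizontal, amacrine and ganglion nuclei. The y axis gives the CPM of their summed nuclei in each week 4 retina (linear scale from 0). Red circles are AAV and blue squares vehicle, n = 2 retinas per arm. Amacrine nuclei were chosen by their GAD1 and GAD2 UMIs, so their GAD2 level is set by that choice. PDE10A in horizontal nuclei is at 1020 and 1886 CPM after AAV and 18.6 and 185 CPM after vehicle, while in amacrine nuclei its 4 values lie between 1043 and 1194 CPM.

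PDE10A had the clearest difference. In horizontal nuclei it stood at 1020 and 1886 CPM after AAV and 18.6 and 185 after vehicle, in amacrine nuclei at 1043 and 1161 against 1093 and 1194, and in ganglion cell nuclei at 309 and 426 against 527 and 340. The horizontal effect exceeded the amacrine effect by 3.77 ± 0.469 SE on the log2 scale (edgeR adjusted p = 1.47e-11) and the ganglion effect by 3.92 ± 0.436 SE (edgeR adjusted p = 3.14e-15). These differences were not fitted within the kinds. Each fit between classes shares its spread between sums of 7 to 12 horizontal nuclei and sums of far more nuclei of the other class. Its p-values rest on that shared spread and not on the spread of the horizontal sums between animals. The fit of horizontal nuclei alone gave PDE10A an edgeR adjusted p of 0.00961. After AAV, 1 horizontal sum lay just under the amacrine values and 1 above them. KCNMA1 exceeded the amacrine effect by 3.76 and the ganglion effect by 3.81 on the log2 scale. GRIK1, a kainate receptor subunit, stood at 1051 and 1775 against 92.8 and 772 CPM in horizontal nuclei and exceeded the ganglion effect by 2.39 ± 0.387 SE (edgeR adjusted p = 1.17e-06). IMPG1, KCNB2 and MARCHF1 were among the genes with the higher effect than in amacrine nuclei, and 42 of 56, 64 of 68 and 30 of 33 of their AAV 7248 UMIs came from 1 nucleus.

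ROBO1 stood at 1138 and 377 CPM after AAV and 3991 and 3475 after vehicle in horizontal nuclei, against 2586 and 2611 and 2100 and 2144 in amacrine nuclei (difference −2.78 ± 0.439 SE, edgeR adjusted p = 1.39e-06). AGBL1 fell from 1039 and 856 to 216 and 233 CPM, and its effect was lower than in amacrine nuclei by 2.29 and than in ganglion cell nuclei by 2.86, as differences of −2.29 and −2.86 on the log2 scale (edgeR adjusted p = 5.03e-05 and 8.68e-09). Amacrine nuclei held little of it, at 10.9 CPM over all retinas. AGBL1 is a gene of the CNTN5-high kind, and its differences between classes were not fitted within the kinds. NCAM2, a cell adhesion molecule, had 14 and 1 against 30 and 39 UMIs in horizontal nuclei (difference from the amacrine effect −2.57 ± 0.522 SE, edgeR adjusted p = 0.000959). PRLR, the prolactin receptor, stood at 816 and 422 against 1002 and 1544 CPM, while its level in amacrine nuclei was 37.9 and 39.3 against 23.8 and 23.7 CPM (difference −1.83 ± 0.372 SE, edgeR adjusted p = 0.000959).

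The share of horizontal nuclei did not separate the arms. Among barcodes with at least 2000 UMIs it was 0.0378% in AAV 7248, 0.0237% in AAV 7249, 0.0280% in vehicle 7250 and 0.0389% in vehicle 7251, with exact 95% binomial intervals between 0.0102% and 0.0738%. The means were 0.0307% ± 0.00998 and 0.0335% ± 0.00770 (SD, n = 2 per arm, exact permutation p = 0.667, two-sided, against a smallest possible p of 0.333). At week 2 the left and right eyes gave 0.0517% and 0.102% after AAV and 0.0447% and 0.0455% after vehicle. The numbers of nuclei allow only large differences to be seen.

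EGFP, the transgene, was seen in 12 of 66 horizontal nuclei of AAV-injected retinas, or 18.2% (exact 95% binomial interval 9.76 to 29.6), and in 0 of 46 of vehicle-injected retinas. A count of 0 there allows a share of nuclei with an EGFP UMI of up to 6.52% at a floor of 3 counts, and of up to 7.71% by the exact interval. By retina it was seen in 1 of 14 and 7 of 32 nuclei at week 2 and in 1 of 12 and 3 of 8 at week 4. T cell nuclei of the AAV-injected retinas, which should lack the transgene, gave 57 of 1466, or 3.89%, at medians of 2068 and 2154 UMIs in the week 4 retinas against 10797 or more in horizontal nuclei. Once each nucleus was thinned to 2000 UMIs, the horizontal shares were 0%, 3.12%, 0% and 0%, against 4.22% and 3.61% in the T cell nuclei of week 4. At that depth the horizontal share lay at or below that background, so expression of EGFP in horizontal nuclei cannot be told from free RNA here. The week 2 AAV-injected retinas held only 2 and 10 T cell nuclei, so week 2 has no usable background of its own. With 8 to 32 horizontal nuclei per retina, the thinned shares could show only large differences. Unthinned shares were 15.2% in amacrine nuclei and 60.0% in ganglion cell nuclei, 19.3% in the nuclei without an LHX1 UMI, and 0 in vehicle-injected retinas. Thinned to 2000 UMIs, amacrine nuclei of AAV 7248 and 7249 gave 3.15% and 4.53%, also near the T cell values. Ganglion cell nuclei gave 10% and 13.2% at that depth, and the nuclei without an LHX1 UMI 4.92% and 1.67%.

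Nuclei with and without an EGFP UMI were compared within the 3 AAV-injected animals. None of 1433 genes differed (0%, edgeR; 14 higher and 13 lower at an unadjusted p under 0.05). With at least 2 EGFP UMIs required, 10 were higher and 31 lower, but that fit sets 1 nucleus of AAV 7248 and 1 of AAV 7249 against the sums of the rest. Without the LHX1 condition, 2 of 7385 genes were higher (COX1 and CYTB, 0.0271%) and 1 lower (0.0135%). The antiviral effectors stood at 88.2 and 89.3 UMIs per 10000 in EGFP-positive and 34.9 and 60.5 in EGFP-negative nuclei of AAV 7248 and 7249, the positive values resting on 1 and 3 nuclei. With LHX1 not required, on 7 and 11 positive nuclei, they stood at 55.6 and 64.4 in positive and 47.8 and 63.0 in negative nuclei. At week 2 they stood at 18.5 and 39.5 in positive and 27.2 and 39.3 in negative nuclei of the left and right eyes. Since EGFP could not be told from free RNA here, these values do not separate transduced from untransduced nuclei.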

How the data were processed

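Nuclei were sorted by DAPI from frozen minipig retinas and run by 10x droplet snRNAseq in 4 lanes per retina. The deposited filtered matrices hold counts of UMIs per gene and barcode, which the authors made with Cell Ranger 8.0.0 on Sscrofa11.1 with EGFP added. The lanes of a retina were pooled. No doublet caller was run, and leaving out the top 5% of UMIs was an alternative. Some results are not reported here. The horizontal nuclei and the gene lists were chosen with earlier results of these data known.

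UMIs were summed per retina. Week 4 was fitted with edgeR 4.0.16 (quasi-likelihood, TMM, filterByExpr) in R 4.3.3, with Benjamini-Hochberg adjustment and a threshold of 0.05. The comparison with other neurons added the retina as a block and the EGFP comparison the animal. DESeq2 1.42.0 was an alternative. Single values were tested by exact permutation in scipy 1.17.1. Week 2 eyes come from 1 animal per arm and were not tested. Labels give separate animals at week 4. Intervals are exact (95%) and, with floors of 3 counts, cover counting error only. Columns of unassigned samples numbered 0. The fits were tested on simulated data.

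Genes were named as the 10 higher and 10 lower of greatest fold change among called genes with at least 30 UMIs, up to 8 called and the most abundant uncalled genes of each list, the 8 of greatest fold at week 2, and the 6 of smallest p per comparison of effects. Others are said to be chosen after their values were seen, or are given within a count.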

Additional observations from a re-analysis of the deposited data

Results flagged for a closer look

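Differences between cell classes in the effect of AAV at week 4 were tested as such. The effect was higher in horizontal than in amacrine nuclei for 42 genes and lower for 21. It was higher in horizontal than in ganglion cell nuclei for 49 genes and lower for 16. Without the LHX1 condition, the counts were 153 and 94 of 16890 genes against amacrine nuclei and 60 and 48 of 12600 against ganglion cell nuclei. IMPG1, higher against amacrine nuclei, and GRIK1, higher against ganglion cell nuclei, did not pass there.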

How the results depend on the processing

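For AAV against vehicle, no replicate block could be used. No paired analysis was possible because each week 4 retina comes from another animal and the week 2 eyes of an arm come from 1 animal. The comparisons with other neurons and by EGFP were made within retinas and animals. Settings that use nuclei without an LHX1 UMI or the kinds were added after seeing the data. The cause of the changes below was not tested. At week 4, 33 higher and 14 lower genes became 21 and 7 with DESeq2, 101 and 47 without a filter and 17 and 6 with thinned sums. Higher genes were 20 at a marker sum of 6. Lower genes were 9 with total UMIs only, 7 without the top 5% of UMIs and 1 with 6 animals. Leaving out 1 retina gave 5 to 73 higher and 1 to 46 lower. Counts were 196 and 84 with LHX1 not required, 195 and 80 in the other nuclei, 192 and 108 in CNTN5-high and 78 and 29 in DSCAM-high nuclei, and 6 lower in CNTN5-high horizontal nuclei. Of the checks on named called genes, 395 kept the call and 91 lost it, 22 of these without vehicle 7250.

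For week 4 against week 2, higher genes were 3 with RLE scaling, 10 without a filter (1 lower), 3 with left eyes, 2 with LHX1 not required (1 lower) and 3 in the other nuclei (1 lower). Leaving out 1 retina gave 8 to 24 higher and 2 to 21 lower. Against amacrine nuclei, higher genes were 17 without the retina block and lower genes 10 with thinned sums, with 153 and 94 when LHX1 was not required, and 2 to 67 higher and 3 to 18 lower when 1 retina was left out. Against ganglion cell nuclei, higher genes were 24 without the block and 16 with thinned sums, lower genes 27 with RLE scaling and 48 with LHX1 not required, and 7 to 69 higher and 6 to 31 lower when 1 retina was left out. For EGFP, genes were 10 higher and 31 lower with 2 UMIs required, 1 lower without a filter, and 2 higher and 1 lower with LHX1 not required. At week 2, genes past the fold were 157 higher in left eyes, 100 higher and 51 lower at 50 UMIs, 678 and 567 at 1.5-fold, 206 higher at a marker sum of 6 and 618 higher in the other nuclei. The EGFP share was 0% at week 4 when thinned, and 0% at week 2 with 2 UMIs required and 1.56% when thinned.

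The difference in share (AAV minus vehicle, percentage points) turned to 0.00257 over all barcodes and 0.00564 with LHX1 not required. The log2 fold changes of uncalled genes turned sign as follows. PCDH9 was 0.0545 in CNTN5-high horizontal and 0.0886 in all CNTN5-high nuclei. TNR was −0.11 at a marker sum of 6 and −0.17 in DSCAM-high nuclei, with −0.20 to 0.34 when 1 retina was left out. GRIA2 was −0.00608 with DESeq2, −0.00543 with RLE, −0.0371 without a filter, −0.00791 with stricter limits on markers of other cells, −0.11 with 6 animals and −0.0297 in CNTN5-high horizontal nuclei, with −0.16 to 0.16 when 1 retina was left out. SNAP25 was 0.0365 with 6 animals and 0.0546 in CNTN5-high horizontal nuclei, where JAK1 was −0.0536. MET was −0.0660 with LHX1 not required, −0.0821 in the other nuclei, −1.34 in CNTN5-high horizontal, −0.86 in CNTN5-high and −0.0534 in DSCAM-high nuclei. When 1 retina was left out, SNAP25 ran from −0.27 to 0.0877, SAMHD1 from −0.77 to 0.90, KLF7 from −0.22 to 0.69, ATP2C1 from −0.13 to 0.39 and MET from −0.00187 to 0.17. Some called genes kept their sign but moved in size when 1 retina was left out. RIGI ran from 3.36 to 7.44, ROBO1 from −3.32 to −1.72 and GAD2 from 1.975 to 3.75. Sums of 7 to 12 nuclei per retina limit the genes that could be tested.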
